A study of Homo sapiens with 12 samples.

Results

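The genes followed here were measured in T47D, an estrogen receptor-positive human breast cancer cell line, and are CPA4, NTN4, L1CAM, TM4SF1, SPNS2, HS3ST3B1 and TRIM29. They are 7 of the 27864 genes in the deposited count table, found by symbol, and they were chosen by measured values of these libraries: the drug BYL719 raised their counts more in control cells than in NF1 knockout cells. That difference, and the drug effects it is made of, are therefore given as a description with no test. Messenger RNA was sequenced from NF1 knockout cells (NF1KO) and control cells (CTRL), each after 48 h with 3 µM BYL719 or with the vehicle DMSO. The groups were NF1KO in BYL719 with 3 libraries, NF1KO in DMSO with 2, CTRL in BYL719 with 3 and CTRL in DMSO with 3, with replicate 1 of NF1KO DMSO not analysed here. The labels do not say how the knockout was made or whether either line is a single clone, so differences between the lines cannot be told apart from differences between clones. Nothing in the labels says that the replicates came from separate cultures, so p-values measure the spread between these libraries, which may be technical.

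BYL719 (alpelisib) inhibits the alpha isoform of PI3K, the lipid kinase that activates AKT downstream of growth factor receptors and that T47D cells carry in a mutated, active form. AKT keeps FOXO transcription factors out of the nucleus, so that PI3K inhibitors are known to raise the mRNA of many genes as well as to lower others. NF1 encodes neurofibromin, which switches RAS proteins off, and RAS feeds both the ERK cascade and PI3K. The genes described here act mostly at or outside the cell surface: in peptide trimming, basement membrane, adhesion, lipid export and heparan sulfate sulfation.

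The 11 libraries held 53283945 to 60148876 counts each, so that 1 CPM (counts scaled to library size) stood for 53.8 to 59.1 reads. NF1 mRNA averaged 0.613 ± 0.252 CPM in NF1KO BYL719 and 0.475 ± 0.00633 CPM in NF1KO DMSO libraries, against 171 ± 37.1 CPM in CTRL BYL719 and 249 ± 39.6 CPM in CTRL DMSO libraries (SD, n = 3, 2, 3 and 3), as the labels state. All 8 luminal epithelial markers checked were above 10 CPM in every group, with summed levels of 9946 to 10678 CPM in NF1KO BYL719, 10432 to 10562 in NF1KO DMSO, 11228 to 13206 in CTRL BYL719 and 9221 to 10713 in CTRL DMSO. The leukocyte marker PTPRC did not pass 0.0345 CPM and the basal keratin KRT5 did not pass 0.0508 CPM in any library. The 5 leukocyte markers summed to 1.08 to 1.44 CPM in NF1KO BYL719, 0.888 to 0.997 in NF1KO DMSO, 1.91 to 2.69 in CTRL BYL719 and 1.35 to 1.53 in CTRL DMSO. Both sums were highest in CTRL BYL719, the group whose rise chose the 7 genes. The 5 fibroblast markers, of which COL1A1 alone passed 1 CPM, summed to 16.8 to 21.3 CPM in NF1KO BYL719, 25.9 to 26.0 in NF1KO DMSO, 27.2 to 35.8 in CTRL BYL719 and 49.6 to 55.3 in CTRL DMSO, lower with the drug in both lines. The 4 endothelial markers summed to at most 1.07 CPM in NF1KO BYL719, 0.543 in NF1KO DMSO, 0.423 in CTRL BYL719 and 0.483 in CTRL DMSO. The 5 basal or myoepithelial markers, KRT5 among them, summed to 10.5 to 11.8 CPM in NF1KO BYL719 and 9.75 to 9.82 in NF1KO DMSO. They summed to 11.7 to 16.1 CPM in CTRL BYL719 and 11.4 to 14.2 in CTRL DMSO. Of these markers, MYLK held 7.44 to 14.6 CPM and ACTA2 1.18 to 1.88 CPM over all libraries. The part of these markers in the results was not tested. Both CTRL libraries numbered 1 stood apart from the other CTRL libraries of their treatment: chi-square per gene was 52.2 to 70.0 for pairs that held one of them, against 7.11 in DMSO and 11.8 in BYL719 for the pairs that did not. Differences between groups without both are given where the 7 genes are set side by side. Among NF1KO BYL719 libraries, pairs that held replicate 3 had values of 27.0 and 35.5, and the other pair 10.6.

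The sequences upstream of 3 of the genes are shown only because they hold motif matches. A rise with the drug in CTRL does not set these genes apart, since the choice of all the genes followed here fixes it. The windows of L1CAM and HS3ST3B1 held no motif match and are not shown. Shared regulation was not tested. Each sequence shown is the RefSeq promoter window on GRCh38.p14, from 250 bases before to 50 bases after the annotated start. It is written 5′ to 3′ on the gene's strand with the matches in capitals. The windows are chr7:130292911-130293210 on the plus strand for CPA4, chr3:149377600-149377899 on the minus strand for TM4SF1 and chr12:95791106-95791405 on the minus strand for NTN4.
CPA4: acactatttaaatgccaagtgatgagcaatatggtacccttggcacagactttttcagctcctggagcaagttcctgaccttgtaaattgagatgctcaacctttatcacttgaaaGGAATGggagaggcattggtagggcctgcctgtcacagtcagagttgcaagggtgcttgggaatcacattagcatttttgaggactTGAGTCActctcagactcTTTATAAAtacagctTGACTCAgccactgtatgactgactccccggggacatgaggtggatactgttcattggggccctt
TM4SF1: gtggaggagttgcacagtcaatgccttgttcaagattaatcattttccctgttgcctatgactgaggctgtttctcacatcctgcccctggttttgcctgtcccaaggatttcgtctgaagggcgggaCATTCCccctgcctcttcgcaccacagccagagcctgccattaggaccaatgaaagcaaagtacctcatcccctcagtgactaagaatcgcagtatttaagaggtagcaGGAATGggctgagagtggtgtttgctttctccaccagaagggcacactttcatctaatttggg
NTN4: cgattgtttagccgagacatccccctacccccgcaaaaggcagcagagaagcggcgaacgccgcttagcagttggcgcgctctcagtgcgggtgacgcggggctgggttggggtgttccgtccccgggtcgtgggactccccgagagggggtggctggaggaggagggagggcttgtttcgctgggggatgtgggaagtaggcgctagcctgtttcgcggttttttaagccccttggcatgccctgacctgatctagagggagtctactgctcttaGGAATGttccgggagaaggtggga

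The motifs searched on both strands were the forkhead motif TGTTTAC, the AP-1 motif TGANTCA, the TATA box TATAAA, the ETS motif CCGGAAG, the TEAD motif GGAATG and the E-box CACGTG. The CPA4 window held 2 AP-1 matches, starting 48 and 15 bases before the annotated start. Between them lay a TATA match 28 bases before the start, which overlaps its own reverse-strand match at 30 bases, and a TEAD match lay 134 bases before it. The TM4SF1 window held TEAD matches 122 and 13 bases before the start, and the NTN4 window shown held 1 TEAD match 27 bases after it. Another NTN4 window, chr12:95790715-95791014, held no match to any of the motifs and is not shown. Of all 35116 promoter windows, 7.71% held the AP-1, 11.5% the TATA and 14.0% the TEAD motif. The forkhead motif (3.42% of windows), the ETS motif (10.3%) and the E-box (7.26%) had no match in any of the 7 windows of the 5 genes in the table (CPA4, TM4SF1, NTN4, L1CAM and HS3ST3B1), which says only that those letters are not there. SPNS2 and TRIM29 had no entry. No binding was measured, and a match is not a site.

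CPA4 and NTN4 encode secreted proteins, and both kept a part of their rise in NF1KO. CPA4 (Entrez 51200, chromosome 7, 130293161 to 130324180, plus strand, GRCh38 as all positions below) encodes a secreted carboxypeptidase that trims amino acids from the carboxyl end of peptides. Its level was 14.8, 14.7 and 15.4 CPM in NF1KO BYL719 and 12.3 and 11.4 CPM in NF1KO DMSO libraries, against 41.7, 41.2 and 42.7 CPM in CTRL BYL719 and 5.19, 6.94 and 5.96 CPM in CTRL DMSO libraries. No 2 groups overlapped: knockout cells in DMSO already stood above control cells in DMSO, and under the drug they stood well below control cells. The mean gain with BYL719 was 3.10 CPM (1.26-fold) in NF1KO and 35.8 CPM (6.95-fold) in CTRL. On the log2 scale the drug effect was 0.33 ± 0.10 (SE) in NF1KO and 2.80 ± 0.10 in CTRL, and the effect in NF1KO less that in CTRL was -2.46 ± 0.14.

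NTN4 (Entrez 59277, chromosome 12, 95657807 to 95791155, minus strand) encodes netrin-4, a laminin-related protein of basement membranes. It had 5.71, 6.40 and 4.73 CPM in NF1KO BYL719 and 3.49 and 2.9 CPM in NF1KO DMSO libraries, against 13.7, 13.1 and 10.3 CPM in CTRL BYL719 and 2.63, 2.17 and 1.80 CPM in CTRL DMSO libraries. All 4 groups were apart here too, in the same order as for CPA4, although the DMSO libraries of the lines nearly touched. How many of all genes have 4 separate groups was not counted. Shares for pairs of groups are given where the 7 genes are set side by side. Its drug effect was 0.81 ± 0.19 (log2, SE), or 1.76-fold, in NF1KO and 2.48 ± 0.17, or 5.59-fold, in CTRL. The smallest count of any of the 7 genes in any library was 97, for NTN4 in CTRL DMSO replicate 3, and its SEs were the largest of the 7.

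L1CAM and TM4SF1 encode cell-surface proteins, and they differed in where the knockout line stood before drug. L1CAM (Entrez 3897, chromosome X, 153861514 to 153886173, minus strand) is an immunoglobulin-type adhesion molecule first known from neurons and associated with migration in carcinoma cells. It had 107, 122 and 124 CPM in NF1KO BYL719 and 128 and 125 CPM in NF1KO DMSO libraries, against 93.9, 72.4 and 71.7 CPM in CTRL BYL719 and 21.8, 19.7 and 20.045 CPM in CTRL DMSO libraries. Knockout cells thus held L1CAM mRNA above the drug-treated control level in both treatments: NF1KO DMSO stood at 159% of CTRL BYL719. Its drug effect was -0.10 ± 0.11 (log2, SE) in NF1KO, a change of -8.48 CPM, and 1.95 ± 0.11 in CTRL, a gain of 58.8 CPM. In BYL719 the difference of NF1KO from CTRL was 0.57 ± 0.10 on the log2 scale, and 0.71 without both CTRL libraries numbered 1, of which the BYL719 library was the highest of its group. Of 7686 stretches of 76 bases, the read length, in its GENCODE v29 transcripts, 367 (4.77%) also occur in the gene U52112.1 and 253 (3.29%) on the other strand of LCA10.

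TM4SF1 (Entrez 4071, chromosome 3, 149369022 to 149377649, minus strand) encodes an L6-family protein that crosses the plasma membrane repeatedly and is a known surface antigen of carcinoma cells. It had 2.18, 2.21 and 2.45 CPM in NF1KO BYL719 and 2.73 and 2.55 CPM in NF1KO DMSO libraries, against 9.29, 8.59 and 10.1 CPM in CTRL BYL719 and 2.59, 3.17 and 3.25 CPM in CTRL DMSO libraries. The lines overlapped in DMSO, and only the CTRL BYL719 libraries stood high. The drug effect was -0.21 ± 0.14 (log2, SE) in NF1KO and 1.63 ± 0.12 in CTRL, with mean folds of 0.863 and 3.10. Of its 3810 stretches of 76 bases, 13 (0.341%) occur on the other strand of TM4SF1-AS1, and the transcripts of CPA4, TRIM29 and NTN4 shared none with another gene.

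SPNS2 and HS3ST3B1 act on a signalling lipid and on a surface polysaccharide. SPNS2 (Entrez 124976, chromosome 17, 4498881 to 4539035, plus strand) exports sphingosine-1-phosphate, a lipid signal for cell migration. It had 6.10, 4.65 and 5.38 CPM in NF1KO BYL719 and 6.42 and 7.25 CPM in NF1KO DMSO libraries, against 40.8, 42.4 and 45.4 CPM in CTRL BYL719 and 11.4, 13.6 and 13.6 CPM in CTRL DMSO libraries. It was the one gene of the 7 for which the knockout line stood clearly lower in DMSO and the drug-treated knockout libraries lay below the untreated ones. The drug effect was -0.35 ± 0.12 (log2, SE) in NF1KO, a fold of 0.787, and 1.73 ± 0.10 in CTRL, a fold of 3.33.

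The 3′ end of SPNS2 overlaps MYBBP1A, which lies on the minus strand and encodes a nucleolar MYB-binding protein, over 132 bases (chromosome 17, 4538904 to 4539035). MYBBP1A had 406% of the counts of SPNS2, and whether counting used strand is not given in the sources used here. Of the 4239 stretches of 76 bases in SPNS2 transcripts, 64 (1.51%) also occur on the other strand of a MYBBP1A transcript. MYBBP1A averaged 74.5 ± 7.93 CPM in NF1KO BYL719 and 85.1 ± 4.84 CPM in NF1KO DMSO, against 66.6 ± 6.18 CPM in CTRL BYL719 and 71.9 ± 6.40 CPM in CTRL DMSO (SD, n = 3, 2, 3 and 3). Its BYL719 effect was not called, which here means past an adjusted p of 0.05, in NF1KO (-0.19 ± 0.11, adjusted p = 0.243) or in CTRL (-0.11 ± 0.10, adjusted p = 0.389, edgeR's quasi-likelihood test), nor was their difference (-0.08 ± 0.15, adjusted p = 0.818).

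HS3ST3B1 (Entrez 9953, chromosome 17, 14301081 to 14349404, plus strand) encodes a sulfotransferase that adds 3-O-sulfate to heparan sulfate chains. It had 7.28, 6.62 and 6.58 CPM in NF1KO BYL719 and 8.99 and 8.97 CPM in NF1KO DMSO libraries, against 9.56, 7.96 and 8.73 CPM in CTRL BYL719 and 3.81, 3.50 and 2.30 CPM in CTRL DMSO libraries. Untreated knockout cells thus held as much as drug-treated control cells (103% of their mean), and drug-treated knockout libraries lay below both. The drug effect was -0.39 ± 0.16 (log2, SE) in NF1KO and 1.45 ± 0.15 in CTRL. Its transcripts share 473 of 5367 stretches of 76 bases (8.81%) with those of the paralog HS3ST3A1, which had at most 9 counts in any library.

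TRIM29 (Entrez 23650, chromosome 11, 120111286 to 120138113, minus strand) encodes an intracellular tripartite-motif protein that is abundant in basal and squamous epithelia. It had 2.69, 2.5 and 2.07 CPM in NF1KO BYL719 and 2.25 and 2.41 CPM in NF1KO DMSO libraries, against 10.4, 9.91 and 10.1 CPM in CTRL BYL719 and 2.58, 2.51 and 2.43 CPM in CTRL DMSO libraries. The NF1KO DMSO libraries lay just under the CTRL DMSO ones, the NF1KO libraries of the 2 treatments overlapped, and the CTRL BYL719 libraries stood alone. Its drug effect was 0.06 ± 0.13 (log2, SE) in NF1KO and 2.01 ± 0.11 in CTRL.

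**Figure D1:**
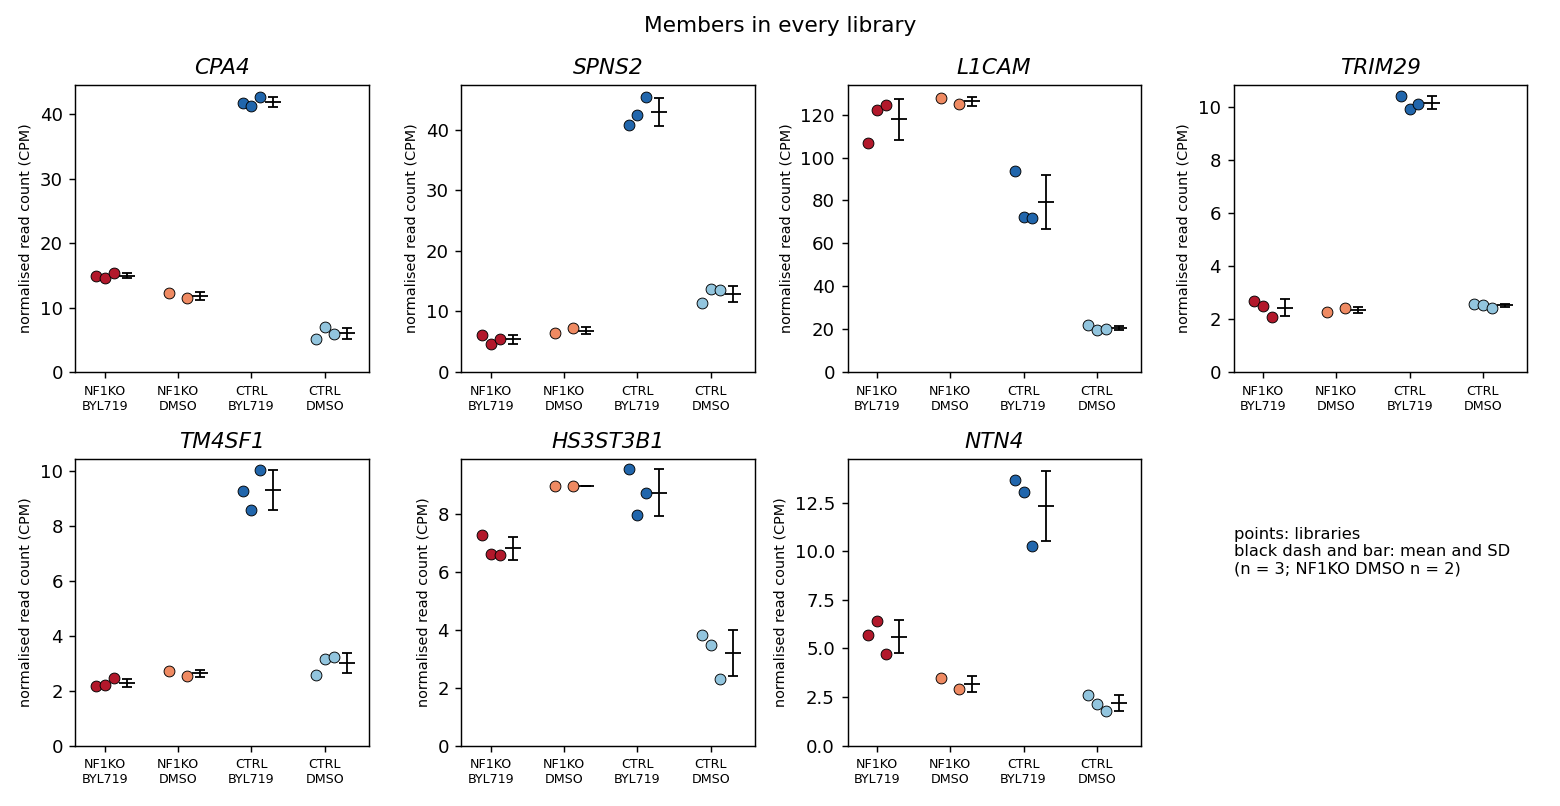
Normalised read counts (CPM on TMM-scaled library sizes, linear axes from 0) of the 7 genes in each library, by group; points are libraries, dashes group means and whiskers 1 SD (n = 3, and 2 in NF1KO DMSO). L1CAM and HS3ST3B1 are high in both NF1KO groups, while for the other 5 genes the CTRL BYL719 libraries stand above all other groups.

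The 7 genes had in common a weaker response in the knockout line than in CTRL, by their choice, but not their level there. The effect of the drug in NF1KO less that in CTRL lay between -2.46 for CPA4 and -1.67 for NTN4, ranks 47 and 133 from the lowest among the 16081 genes tested. Without both CTRL libraries numbered 1 the 7 values were -2.36 for CPA4, -2.03 for SPNS2, -1.96 for L1CAM, -1.96 for TRIM29, -1.75 for TM4SF1, -1.91 for HS3ST3B1 and -1.73 for NTN4. All 7 CTRL BYL719 groups lay wholly above CTRL DMSO, as did 25.8% of all genes tested, which the choice of the genes fixes. Within NF1KO, the BYL719 libraries lay wholly above the DMSO ones for CPA4 and NTN4 (28.4% of all genes), wholly below for SPNS2, L1CAM, TM4SF1 and HS3ST3B1 (26.2% of all genes), and overlapped for TRIM29. The median drug effect over the 7 genes was -0.10 in NF1KO and 1.95 in CTRL, beside 0.01 and 0.00 over all genes tested. Without both CTRL libraries numbered 1, the CTRL effects were 2.69 for CPA4, 2.54 for NTN4, 1.85 for L1CAM, 1.53 for TM4SF1, 1.68 for SPNS2, 1.52 for HS3ST3B1 and 2.01 for TRIM29.

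**Figure D2:**
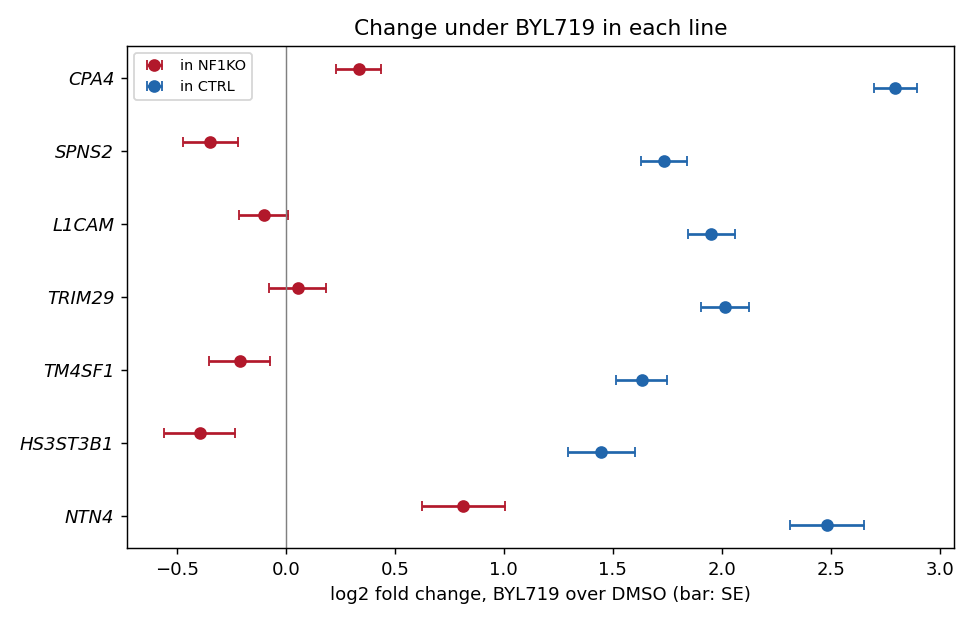
Effect of BYL719 against DMSO (log2 fold change, whiskers 1 SE) for each of the 7 genes in NF1KO and in CTRL cells. The CTRL effects lie between 1.45 and 2.80 and the NF1KO effects between -0.39 and 0.81.

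In DMSO, the knockout libraries stood wholly above the control ones for CPA4, L1CAM, HS3ST3B1 and NTN4 (27.9% of all genes tested), wholly below for SPNS2 and TRIM29 (28.2%) and overlapped for TM4SF1. The log2 differences were 2.62 ± 0.12 (SE) for L1CAM, 1.48 ± 0.17 for HS3ST3B1, 0.98 ± 0.10 for CPA4 and 0.53 ± 0.20 for NTN4, then -0.11 ± 0.13 for TRIM29, -0.18 ± 0.14 for TM4SF1 and -0.91 ± 0.12 for SPNS2. L1CAM and HS3ST3B1 thus began at or above the level that the drug gave in CTRL, CPA4 and NTN4 began part of the way up, TRIM29 and TM4SF1 began level, and SPNS2 began lower. In BYL719, the knockout libraries stood wholly below the control ones for all but L1CAM (23.7% of all genes) and wholly above for L1CAM (25.2%). There the log2 differences were 0.57 ± 0.10 for L1CAM and -0.36 ± 0.15 for HS3ST3B1, and between -1.13 for NTN4 and -2.99 for SPNS2 in the other 5. Without both CTRL libraries numbered 1, the DMSO differences were 2.67 for L1CAM, 1.63 for HS3ST3B1, 0.88 for CPA4, 0.69 for NTN4, -0.08 for TRIM29, -0.28 for TM4SF1 and -0.99 for SPNS2, and in BYL719 they were 0.71 for L1CAM, -0.28 for HS3ST3B1 and between -1.05 for NTN4 and -3.02 for SPNS2 in the other 5. The TM4SF1 value in DMSO was thus over 1.5 times as far from 0 without them. These comparisons share libraries with the one that chose the genes and carry no test.

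**Figure D3:**
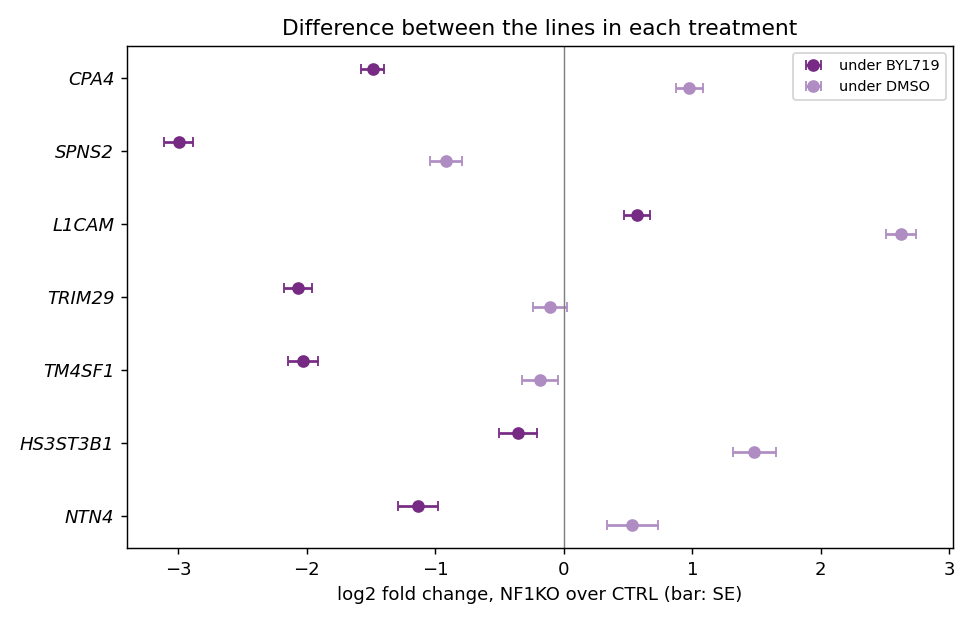
Difference of NF1KO from CTRL (log2 fold change, whiskers 1 SE) for each of the 7 genes within BYL719 and within DMSO. In DMSO the values run from 2.62 for L1CAM to -0.91 for SPNS2, and in BYL719 L1CAM alone lies above 0.

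The difference of NF1KO from CTRL averaged over both treatments uses the same libraries that chose the genes, so it too is given with no test. L1CAM averaged 1.60 ± 0.08 (log2, SE) and HS3ST3B1 0.56 ± 0.11, both above 0. SPNS2 averaged -1.95 ± 0.08 and was below CTRL in both treatments. For TM4SF1 (-1.11 ± 0.09) and TRIM29 (-1.09 ± 0.09) the average is made almost wholly of the BYL719 libraries, since the lines stood level or nearly so in DMSO. CPA4 (-0.25 ± 0.07) and NTN4 (-0.30 ± 0.13) were higher in DMSO and lower in BYL719, and these averages sum opposite differences. Without both CTRL libraries numbered 1 the averages were 1.69 for L1CAM, 0.67 for HS3ST3B1, -2.01 for SPNS2, -1.15 for TM4SF1, -1.06 for TRIM29, -0.30 for CPA4 and -0.18 for NTN4, the last smaller by over 1.5 times. In bulk RNA, fewer cells with the mRNA and less of it per cell cannot be told apart, here and in every other value.

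Among all 16081 genes tested, BYL719 in CTRL raised 826 (5.14%) by more than 2-fold, and 202 (1.26%) of all genes were raised so and also had a lower effect in NF1KO by the test of the difference. The 7 genes belong to these 202 by their choice. Within the 202, 93 genes were still called higher with BYL719 in NF1KO, 5 were called lower and 104 were not called, against 10.3% and 8.47% of all genes; the choice of the 202 bears on these counts. In DMSO, 54 of them were called higher in NF1KO and 62 lower, and 86 were not called. Of all genes tested, 9.99% were called higher and 10.3% lower in that comparison. It shares its DMSO libraries with the choice of the 202, which bears on these counts too. In BYL719, 13 of the 202 were called higher in NF1KO and 165 lower, against 20.8% and 19.0% of all genes, which the choice of the 202 largely fixes.

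**Figure D4:**
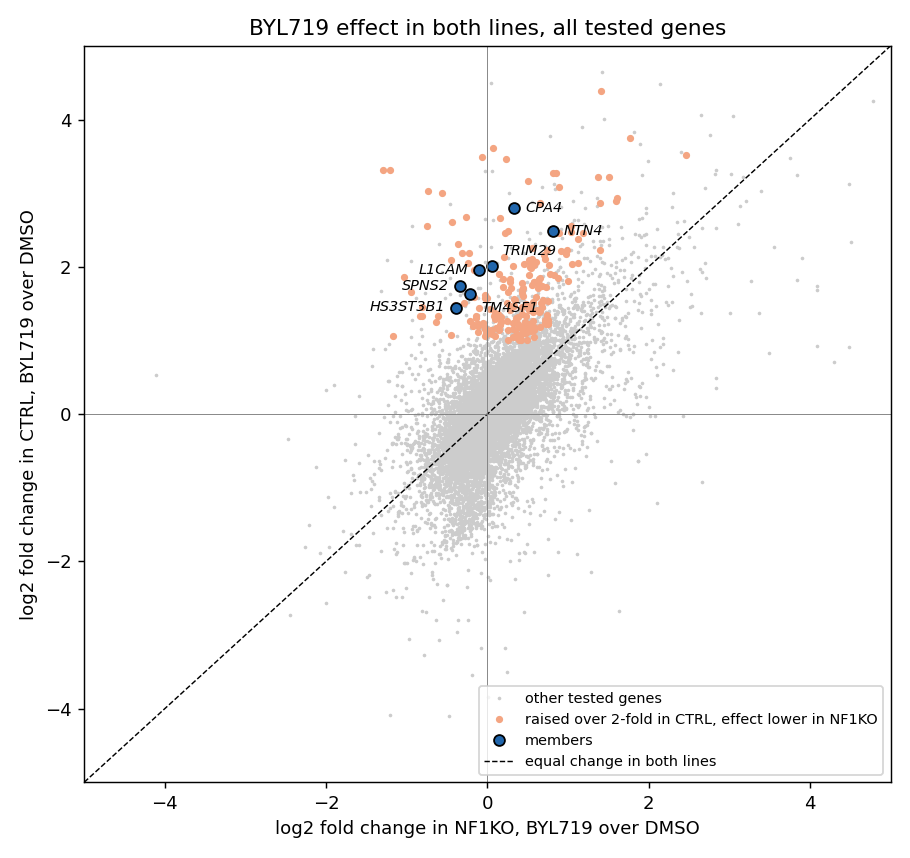
Effect of BYL719 (log2 fold change) in NF1KO on the horizontal and in CTRL on the vertical axis for all genes tested, with the 7 genes in blue and the other genes of the 202 in orange; 12 genes lie outside the axes and the dashed line marks equal change. The 7 lie between -0.39 and 0.81 on the horizontal axis and at 1.45 or above on the vertical axis.

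Relatives and partners of the 7 genes, in lists, were counted against a background in which BYL719 raised 22.6% and lowered 21.8% of all genes tested in CTRL and raised 10.3% and lowered 8.47% in NF1KO, and in which the drug effect was called higher in NF1KO for 5.68% and lower for 3.71%. Of 8 other carboxypeptidase genes tested of 18, 1 rose in NF1KO and 3 rose and 1 fell in CTRL, with no difference of effects called. CPQ, a secreted plasma carboxypeptidase, rose in NF1KO by 0.54 ± 0.11 and in CTRL by 0.79 ± 0.10.

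Of 10 other genes of netrins, their receptors and laminin partners tested of 14, 2 rose and 2 fell in NF1KO and 3 rose and 1 fell in CTRL. UNC5B, a netrin receptor, had the one difference called (-0.89 ± 0.20, adjusted p = 0.0140): it fell in NF1KO (-0.73 ± 0.14), while its effect in CTRL was not called (0.16 ± 0.13). That call was lost without NF1KO DMSO replicate 2 (adjusted p = 0.0785) or replicate 3 (adjusted p = 0.0563). LAMC1, the laminin chain that netrin-4 is known to bind, fell in both, by a log2 change of -0.49 ± 0.08 in NF1KO and -0.39 ± 0.07 in CTRL. Of 13 L1-family and partner genes tested of 17, 1 rose in NF1KO and 3 rose in CTRL, and none fell in either. The L1-family adhesion gene NRCAM rose in both, by 0.75 ± 0.10 in NF1KO and 1.23 ± 0.09 in CTRL, with a difference of -0.48 ± 0.13 (adjusted p = 0.0394). That call was lost with limma-voom (adjusted p = 0.0505) and without CTRL DMSO replicate 2 or 3 or any single NF1KO library (adjusted p = 0.064 to 0.202).

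Of 8 L6-family and tetraspanin genes tested of 14, none rose and 1 fell in NF1KO, and 3 rose and 1 fell in CTRL. TSPAN15, a tetraspanin that guides the protease ADAM10, was at -0.10 ± 0.07 in NF1KO without passing the test and rose in CTRL (0.40 ± 0.06), with a difference of -0.51 ± 0.09 (adjusted p = 0.00384). Of the 14 nearest tested protein-coding neighbours of the 7 genes, a set added after the data were seen, 1 rose and 2 fell in NF1KO and 3 rose and 4 fell in CTRL. The neighbour of TM4SF1, WWTR1, which encodes the YAP-related coactivator TAZ, lies 139585 bases away and had the one difference called among them. It rose in NF1KO by 0.58 ± 0.09 and in CTRL by 1.05 ± 0.08, and the difference was -0.47 ± 0.12 (adjusted p = 0.0266).

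Of 20 other sphingosine-1-phosphate genes tested of 23, none rose and 2 fell in NF1KO, and 4 rose and 5 fell in CTRL. SPHK1, the kinase that makes the lipid that SPNS2 exports, fell in both, by a log2 change of -0.60 ± 0.10 in NF1KO and -0.91 ± 0.09 in CTRL. The receptor gene S1PR3 was at -0.21 ± 0.10 in NF1KO without passing the test, rose in CTRL (0.49 ± 0.09), and differed by -0.70 ± 0.13 (adjusted p = 0.00562). S1PR5, another receptor of the lipid, went the other way: it was at 0.12 ± 0.14 in NF1KO without passing the test, fell in CTRL (-1.16 ± 0.13), and differed by 1.27 ± 0.19 (adjusted p = 0.00106). Of 15 other heparan sulfate genes tested of 23, 1 rose and 1 fell in NF1KO, and 7 rose and none fell in CTRL. Among them EXT1, a polymerase of the chain, was at 0.10 ± 0.07 in NF1KO without passing the test, rose in CTRL (0.44 ± 0.06), and differed by -0.34 ± 0.09 (adjusted p = 0.0391). That call was lost with no filter (adjusted p = 0.0875) and without any single library other than CTRL BYL719 replicate 1 or NF1KO BYL719 replicate 3 (adjusted p = 0.0614 to 0.213).

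Basal and squamous epithelial genes were set beside TRIM29. Of 13 others tested of 20, 1 rose and 2 fell in NF1KO, 5 rose and 2 fell in CTRL, and the drug effect was lower in NF1KO for 5 and higher for 1, while the median difference over the 13 was -0.08. KRT16, a keratin of stressed and squamous epithelium, averaged 0.334 CPM in NF1KO BYL719 and 0.494 CPM in NF1KO DMSO, against 4.10 CPM in CTRL BYL719 and 0.509 CPM in CTRL DMSO. Its drug effect was -0.56 ± 0.40 in NF1KO and 3.01 ± 0.28 in CTRL, with a difference of -3.56 ± 0.50 (adjusted p = 0.000703). KRT17, a keratin of basal cells, differed by -3.30 ± 0.48 (adjusted p = 0.000943) and averaged 0.108 CPM in NF1KO BYL719 and 0.183 CPM in NF1KO DMSO, against 1.31 CPM in CTRL BYL719 and 0.221 CPM in CTRL DMSO. KRT16 and KRT17 have near-identical pseudogenes, so their counts are uncertain. The pseudogene KRT16P3 held at most 1 count in each NF1KO library, against 16 to 19 in CTRL BYL719 and at most 1 in CTRL DMSO libraries. KRT15, another basal keratin, rose by 0.72 ± 0.13 in NF1KO and 2.11 ± 0.11 in CTRL, with a difference of -1.39 ± 0.17 (adjusted p = 0.000328). LAMB3, a chain of laminin-332, had a lower effect in NF1KO by -0.73 ± 0.18. ITGA6, an integrin chain that binds that laminin, had a higher one by 0.46 ± 0.11. Over the alternatives, 4 to 5 genes of the list were lower and 0 to 3 higher in that difference. Of the defining basal genes, KRT14 did not pass 0.279 CPM in any library. TP63 ran from 0.0186 to 1.06 CPM over the libraries, and its difference of 0.62 ± 0.72 was not called. In the other lists the number of genes with a called difference also moved with the alternatives: 1 to 4 lower and 1 to 3 higher for sphingosine-1-phosphate, 1 to 4 lower for tetraspanins, 0 to 3 lower and 0 to 1 higher for heparan sulfate, 0 to 2 lower for the L1 family, 0 to 1 lower for netrins and 0 to 1 lower for carboxypeptidases.

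**Figure D5:**
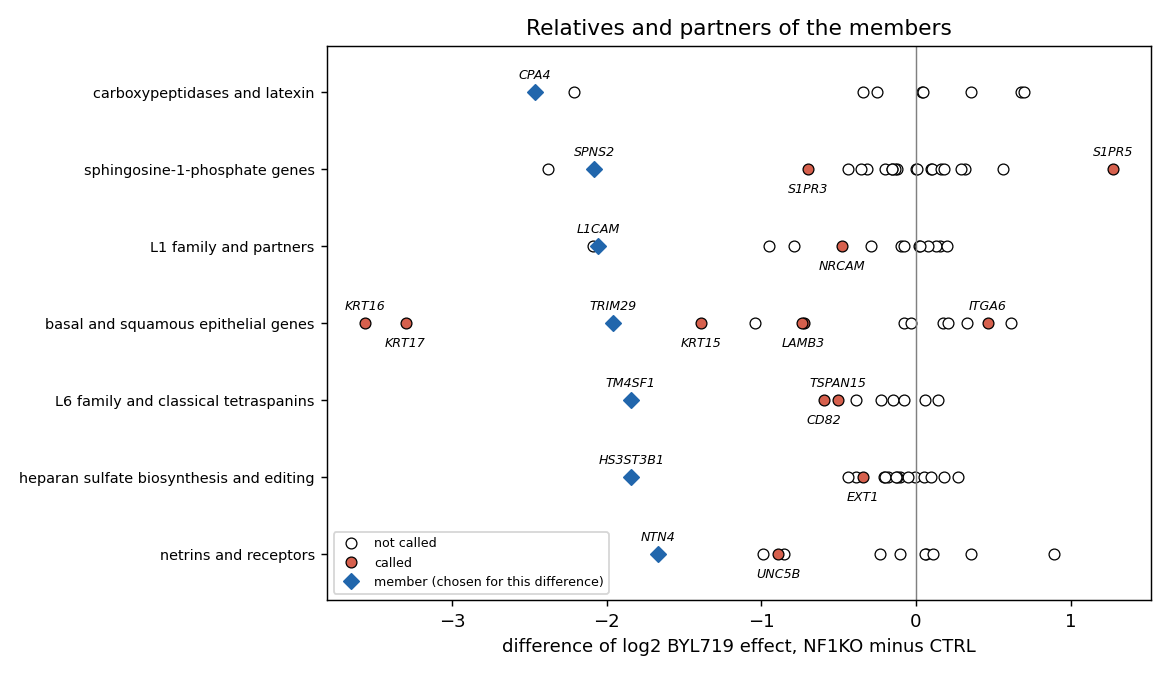
Difference of the BYL719 effect (log2 effect in NF1KO less that in CTRL) for the 7 genes (diamonds, chosen for this difference) and for the other tested genes of each list (circles, filled where called at an adjusted p under 0.05, not all named). Most circles lie close to 0, while KRT16 and KRT17 lie below every diamond.

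Across the 11 libraries the 7 genes did not follow a single profile. Pearson's r between pairs, on log2 CPM, ran from -0.26 for SPNS2 with L1CAM to 0.97 for TRIM29 with TM4SF1, as a description over libraries that share their 4 groups. SPNS2 with TM4SF1 (0.96), CPA4 with NTN4 (0.96) and L1CAM with HS3ST3B1 (0.88) were also close. Against the mean of the 7 standardised profiles, the genes most alike among 11621 candidates were HSD17B1 (r = 0.98), OPN3 (0.98), RASL11B (0.97), PAWR (0.97), WNT7B (0.97), ENC1 (0.97), PREP (0.96), KLF4 (0.96), ZNF324 (0.96) and ITPR1 (0.95). HSD17B1, an enzyme that makes estradiol from estrone, averaged 14.7 CPM in NF1KO BYL719 and 12.3 CPM in NF1KO DMSO, against 48.1 CPM in CTRL BYL719 and 8.56 CPM in CTRL DMSO. Its annotated position overlaps an antisense gene with 114% of its counts, so reads of the pair cannot be told apart without strand. OPN3 likewise overlaps a gene with 1286% (CHML) of its counts, and ENC1 also overlaps another gene. KLF4, a zinc-finger factor of epithelial differentiation, changed by -0.03 ± 0.12 with BYL719 in NF1KO and 1.18 ± 0.11 in CTRL. HSD17B1 and KLF4 were picked for their likeness to the 7 genes, so their weaker drug effect in NF1KO follows largely from that choice. For single genes the closest were TMEM45B for CPA4 (r = 0.99), NUPR1 for SPNS2 (0.99), STK10 for L1CAM (0.98), ARSJ for TRIM29 (0.99), SGSH for TM4SF1 (0.99), CEMIP2 for HS3ST3B1 (0.94) and ENC1 for NTN4 (0.98).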

How the data were processed

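Poly(A) RNA of T47D lines was sequenced with a stranded kit as single reads of 76 bases, per the labels' protocols. The submitters' processing notes name STAR 2.5.2a, SAMtools 1.7, Picard 2.9.2, edgeR and hg38. The authors deposited raw counts per Entrez gene; the counting tool, annotation and strand setting are not given in the sources used here. Positions came from RefSeq on GRCh38, where 27740 identifiers (99.6%) were found; 63 genes had no symbol. Ribosomal RNA genes took 8.45% to 12.3% of counts.

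The test was edgeR's (4.0.16, in R 4.3.3). The filterByExpr step left 16081 genes, all 7 described ones among them. Libraries were scaled by TMM, and 1 quasi-likelihood fit covered all 4 groups, leaving 7 residual degrees of freedom. Tests were 2-sided, with Benjamini-Hochberg adjustment over the genes tested. A gene was called at an adjusted p under 0.05. The SE of a log2 value is its size over the square root of its F statistic. Profiles were compared by Pearson's r on log2 CPM with a prior count of 2. The steps were tested on simulated data. The 7 genes and the lists were chosen with earlier results of these data known, and no test of the 7 is used, since each comparison shares libraries with their choice. Besides the 7, NF1 and the overlapping MYBBP1A, up to 4 called genes per list were named by adjusted p in the difference of effects and then in CTRL. LAMB3, ITGA6, TP63, KRT14, KRT5, MYLK, ACTA2, KRT16P3, HS3ST3A1, PTPRC and WWTR1 were named after their values were seen. Some genes this rule names are not reported here.

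Alternatives were other scalings and filters, DESeq2 1.42.0, limma-voom 3.58.1, the compared libraries alone, a replicate block and leaving out libraries. Deviations of equally numbered CTRL libraries from their group means correlated at 0.59, 0.34 and 0.32 across genes. Unequally numbered ones gave 0.23 for DMSO 2 with BYL719 3 and 0.18 for DMSO 3 with BYL719 2. Those with 1 library numbered 1 gave -0.42 to -0.36. Deviations within a group sum to 0, so these values depend on each other. The numbers may thus pair CTRL libraries, but the main fit held no replicate term. The 2 NF1KO pairs, at 0.08 and 0.15, mirror each other and can hardly show pairing. Figures were drawn with matplotlib 3.10.9.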

Additional observations from a re-analysis of the deposited data

Results flagged for a closer look

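This section covers the relatives of the 7 genes that the naming rule above picked and that are reported here. Of them, 10 had a BYL719 effect that differed between the lines by the test of the difference itself (edgeR's quasi-likelihood test, adjusted p under 0.05). The effect in NF1KO less that in CTRL was -3.56 for KRT16, -3.30 for KRT17, -1.39 for KRT15, -0.89 for UNC5B, -0.70 for S1PR3, -0.60 for CD82, -0.51 for TSPAN15, -0.48 for NRCAM, -0.34 for EXT1 and 1.27 for S1PR5. CD82, a tetraspanin, fell in NF1KO (-0.49 ± 0.10) and was at 0.10 ± 0.09 in CTRL. Of these 10, S1PR5 had the one difference above 0. ITGA6, named after its values were seen and so not among the 10, was also called higher (0.46 ± 0.11). The call was lost for EXT1 in 10 alternatives, for NRCAM in 8, for CD82 in 3 and for UNC5B in 2, and in none of those run for the other 6.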

How the results depend on the processing

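The 42 values of the 7 genes (6 comparisons each) were recomputed under 20 or 21 alternatives each, all on these same libraries or a part of them. Of the 854 recomputed values, 849 were counted as unchanged and 0 as reversed. A change of sign smaller than the spread between libraries of a group was not counted as reversed. The drug effect of TRIM29 in NF1KO, 0.06, ran from -0.03 to 0.16 over its alternatives. The other 5 were the L1CAM difference in BYL719 given above and the line averages of CPA4 in 1 and NTN4 in 3 alternatives. Line averages were sorted by a p-value threshold, which is no test for genes chosen from these libraries. As values they kept their sign, at -0.30 to -0.20 for CPA4 and -0.37 to -0.18 for NTN4. Counts over all genes moved more. For the difference of effects, 914 genes were called higher and 596 lower; a replicate block within lines, added after the data were seen, gave 2403 and 1942, and leaving out both CTRL libraries numbered 1, also added later, gave 1393 and 1018. For BYL719 in NF1KO, 1652 rose and 1362 fell. With the replicate block the counts were 2503 and 2161, with the block within lines 3505 and 3239, and without both CTRL libraries numbered 1 they were 2764 and 2548. Leaving out 1 library at a time gave 495 to 1233 higher and 243 to 922 lower for the difference, and 459 to 2104 and 329 to 1858 for BYL719 in NF1KO. It gave 744 to 2043 higher and 779 to 2213 lower for NF1KO against CTRL in DMSO (1607 and 1662 with all libraries). The lowest of these came without an NF1KO DMSO library, which leaves 1 in that group, assumed to vary like the others. The block moved no value of the 7 genes to the other side of 0 by more than the spread. Depth limited NTN4, TRIM29, TM4SF1 and HS3ST3B1 most, at 97 to 807 counts a library.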
